A study of Mus musculus with 26 samples.

Results

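The 9 libraries described here, of 26 in the series, followed mouse primordial germ cell-like cells (PGCLCs) at day 2, day 4 and day 6 of induction in 1 line carrying an empty vector (EV) and in 2 clones that overexpress Tex10. They were chosen by their labels as the 6 clone libraries and the 3 EV libraries of the PGCLC days. Another 3 libraries, from the same lines as epiblast-like cells (EpiLCs), served as the reference for differences present before induction. The cells are of the 129Sv/J strain and their treatment is given as untreated, so the groups differ by the transgene only as far as the labels say. No label states the promoter of the transgene, a sort for germ cells, or whether the days came from separate cultures. Each clone and the EV line is a single line, so the spread between control lines cannot be measured, and Tex10 overexpression and the identity of the line cannot be told apart.

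PGCLCs are made by bringing pluripotent cells into a formative, EpiLC state and exposing them to BMP4 and other cytokines, which switch on the germ cell regulators Prdm1, Prdm14 and Tfap2c while pluripotency genes such as Nanog come back. Wnt signalling has a part in making EpiLCs competent for this step. It also drives mesodermal genes, which germ cell precursors switch on briefly and then silence. Tex10 is a nuclear protein known as a Sox2 partner at enhancers of pluripotent cells and as a subunit of the rixosome, a complex that processes ribosomal RNA.

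The label was checked against germ cell markers, and these gave a mixed picture. Of 19 listed genes, 9 lay higher in each of the 9 PGCLC libraries than in any EpiLC library, 2 (Rhox5 and Lin28a) lay lower, and 8 overlapped, Dazl and Ddx4 among them. The summed level of the list was 1158 to 1297 in EpiLCs and 900 to 1375 in the PGCLC libraries. In the 9 PGCLC libraries Prdm14 lay between 40.5 and 50.2 TMM-scaled CPM (the unit of every level below, reads scaled to a common library size), against 1.79 to 4.06 in the EpiLC libraries. Tfap2c lay between 64.6 and 192 against 0.751 to 2.53. Nanos3, an RNA-binding factor of early germ cells, lay between 2.11 and 6.47 against 0.601 to 1.64, and Dppa3 stayed near the floor of 3 reads in most libraries. All 19 genes of the germ cell list were above the floor in at least 1 PGCLC library. The libraries held 5227287 to 6854503 reads each, and 3 reads corresponded to 0.431 to 0.56 CPM, which covers counting error only. The EV libraries had reads for 21109 to 21285 genes and the clone libraries for 19981 to 20455, so the groups did not overlap. The part of this in the results was not tested.

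Tex10 itself (chr4:48430858-48473464, GRCm38.p6) was higher in every clone library. Its level in the EV line was 160 at day 2, 147 at day 4 and 145 at day 6. Clone 1 had 368, 481 and 654 on those days, and clone 2 had 330, 493 and 651. Over the 3 days the EV mean was 151 ± 8.61 (SD, n = 3 libraries) and the clone mean 496 ± 136 (SD, n = 6 libraries). These SDs include the change between days. On the scale of log2(CPM + 1), used for every fold change here, Tex10 rose by 1.67 with an SE of 0.10 (limma with stage as block, Benjamini-Hochberg adjusted p = 2.69e-14). EpiLCs already carried the difference, with 213 in EV, 394 in clone 1 and 385 in clone 2. The difference widened between EpiLCs and the PGCLC days by 0.80 (limma adjusted p = 0.0251) and from day 2 to day 6 by 1.05 (limma adjusted p = 8.77e-05).

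Of 19 tested genes of the germ cell list, 5 were higher (26.3% called, against 9.12% of all tested genes), Dazl, Rhox5 and Ifitm3 among them. The other 14, with Prdm1, Prdm14 and Tfap2c, were not called. The called members of the formative epiblast and Hox lists were lower, as were 10 of 11 called Wnt pathway genes. The largest change among called genes, on the log2(CPM + 1) scale, was the fall of Grb10. Of 15255 tested genes, 1392 passed an adjusted p of 0.05 in limma, which is 9.12%. Of these 747 were higher (4.9% of tested genes) and 645 lower (4.23%), and the median log2 fold change over tested genes was 0.00274. A log2 fold change of at least 1 in size was reached by 68 called genes, 19 higher and 49 lower. The count fell to 559 without the day 4 EV library, to 804 without clone 1 and to 447 without clone 2. Without the trend of variance on expression it was 202. Both clones lay above EV on each of the 3 days for 10.6% of tested genes and below it for 10.4%, 21% in all.

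The called genes were then set against EpiLCs of the same lines. Of the 1392 called genes, 883 (63.4%) had both clones in EpiLCs on the side of EV that they took on the PGCLC days, against 44.3% of all tested genes. An EpiLC difference at least 50% the size of the PGCLC difference, in the same direction, was seen for 535 of them (38.4%), a share near the 38% of all tested genes. In 52 called genes the PGCLC difference itself departed from the EpiLC difference (limma interaction). EpiLCs have 1 EV library, and the differences within EpiLCs are given as values, with no test run on them here. Both clones were at least 1 log2 unit above EV in EpiLCs for 49 genes (0.321%) and below it for 83 (0.544%).

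**Figure D1:**
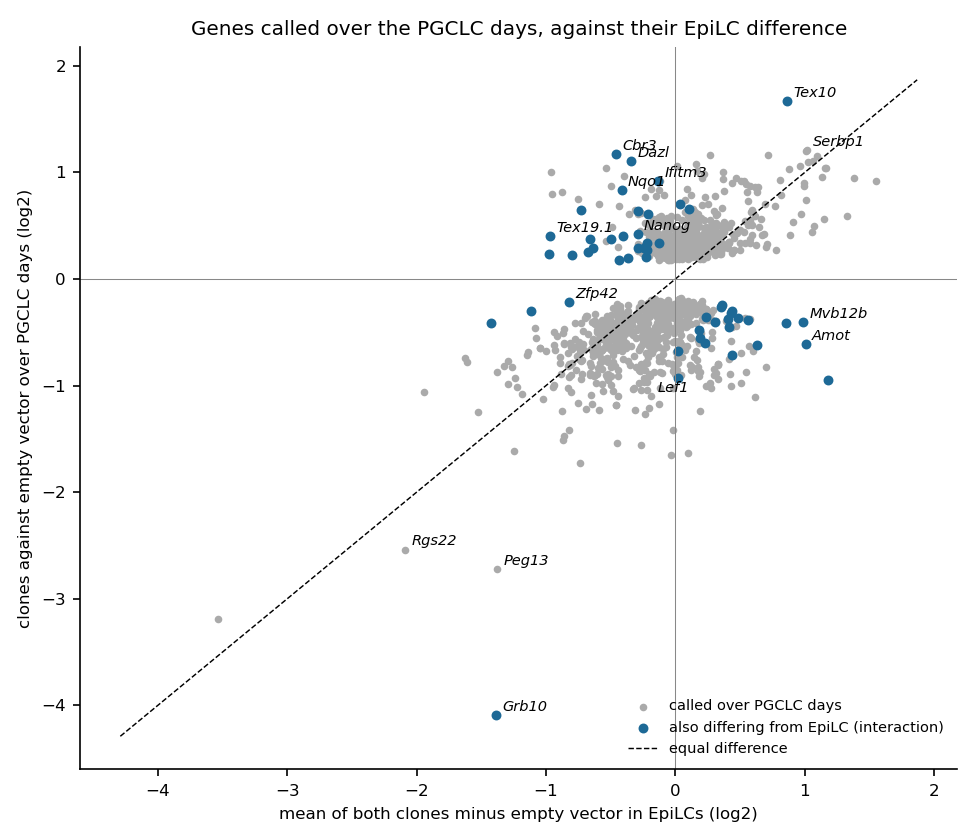
Each point is a gene called over the PGCLC days, with the mean difference of both clones from EV in EpiLCs on the x axis and the fitted log2 fold change over the PGCLC days on the y axis, blue where the 2 differed in the interaction test. Serbp1 and Rgs22 lie near the dashed line of equal difference, while Grb10 (-4.09 against -1.39) and Dazl (1.11 against -0.34) lie far from it.

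Among germ cell genes, 5 of 19 tested members rose and none fell, 26.3% against the 9.12% of all tested genes, with a list median of 0.185 against 0.00274. The risen genes were Dazl, Rhox5, Ifitm3, Ifitm1 and Tcl1. Dazl, an RNA-binding protein that licenses germ cells for gametogenesis, was at 4.74, 16.1 and 40.5 in EV on days 2, 4 and 6. Clone 1 had 12.9, 46.3 and 85.3 and clone 2 had 8.02, 37.5 and 82.6. Both clones were above EV on each day, while the level in every line climbed over the days. Its log2 fold change was 1.11 with an SE of 0.13 (limma adjusted p = 3.9e-07), and in EpiLCs both clones were below EV, 22.7 and 24.9 against 30.3. The change from EpiLCs was 1.45 (limma adjusted p = 0.00169).

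Ifitm3, an interferon-inducible membrane protein used as an early germ cell marker, peaked at day 2 in each line. EV held 117, 65.9 and 46.4 on days 2, 4 and 6, clone 1 held 187, 138 and 83.2, and clone 2 held 213, 158 and 83.4. The gain of 0.92 with an SE of 0.08 (limma adjusted p = 3.03e-10) was not seen in EpiLCs, where EV had 44.3 and the clones 45.2 and 36.0, and the interaction was 1.05 (limma adjusted p = 0.00042). Its neighbour Ifitm1 rose by 0.61 with an SE of 0.15 (limma adjusted p = 0.00955), with a gap at day 2 (28.3 in EV, 58.9 and 76.7 in the clones) and overlapping levels at day 4. Ifitm1 passed in 16 of 22 fits, and its call was lost in DESeq2, without the filter, without the variance trend, without clone 2, without the day 2 EV library and without clone 2 at day 2.

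Rhox5, an X-linked homeobox gene of the germ cell list, had 4.17, 7.97 and 14.3 in EV on days 2, 4 and 6. In clone 1 it had 8.01, 20.4 and 25.1 and in clone 2 10.6, 28.0 and 25.5, again above EV on each day. EpiLCs had more, 33.2 in EV and 34.1 and 40.7 in the clones, and the change from EpiLCs of the difference between clones and EV, 0.92, did not pass (limma adjusted p = 0.166). Over the PGCLC days the log2 fold change was 1.08 with an SE of 0.17 (limma adjusted p = 3.03e-05). Tcl1, a coactivator of the kinase Akt, rose by 0.33 with an SE of 0.09 (limma adjusted p = 0.0153), from 33.9, 46.1 and 69.9 in EV to at most 43.4, 69.5 and 80.7 in the clones. The Tcl1 call was lost without either clone, without the day 4 EV library and without clone 1 at day 4. Over the whole germ cell list 4 to 6 genes passed with 1 library left out, 4 without clone 1 and 3 without clone 2. Leaving the filter out gave 2 calls, and leaving the trend of variance out gave 3.

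The regulators that found the germ line did not pass the test over the PGCLC days. Prdm1, the repressor Blimp1, was between 26.5 and 28.8 in EV and between 22.9 and 31.9 in the clones, with a log2 fold change of -0.08 and an SE of 0.12 (limma adjusted p = 0.739). Prdm14 had 0.07 with an SE of 0.09 (limma adjusted p = 0.711), and its sign turned to -0.0055 without the day 2 EV library. Tfap2c, the AP-2 gamma factor, was at 164 in EV and 188 and 192 in the clones at day 2, then at 132 against 76.5 and 74.7 at day 4 and at 80.6 against 64.6 and 68.6 at day 6. Thus both clones were above EV at day 2 and below it on the later days, and the fold change over the days was -0.29 with an SE of 0.10 (limma adjusted p = 0.0705). It was called lower in 3 of 22 fits, among them that without the day 2 EV library (-0.54) and that without clone 1 at day 2 (-0.33). In EpiLCs, where Tfap2c was barely expressed, the clones had 2.53 and 2.198 against 0.751, and the interaction was -1.23 (limma adjusted p = 0.00307). Kit, the receptor of stem cell factor, had 0.17 with an SE of 0.09 (limma adjusted p = 0.248), and Nanos3 had 0.19 with an SE of 0.24 (limma adjusted p = 0.716).

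Dppa3, a maternal factor and PGC marker, had 0.29 to 5.15 in the 9 libraries and a log2 fold change of 0.32 with an SE of 0.30 (limma adjusted p = 0.581). It passed the filter on low values through the clones, averaging 0.626 in the EV libraries of all stages and 1.44 in those of the clones. Its reads may be shared with the near-identical pseudogene Dppa3-ps, which had 14.5, 4.60 and 3.01 in EV on days 2, 4 and 6. Clone 1 had 45.1, 6.85 and 4.88 there and clone 2 had 48.7, 10.6 and 4.22. Dppa3-ps rose by 0.96 with an SE of 0.20 (limma adjusted p = 0.00145), and which copy the reads came from is uncertain. The pseudogene was named after its values were seen.

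**Figure D2:**
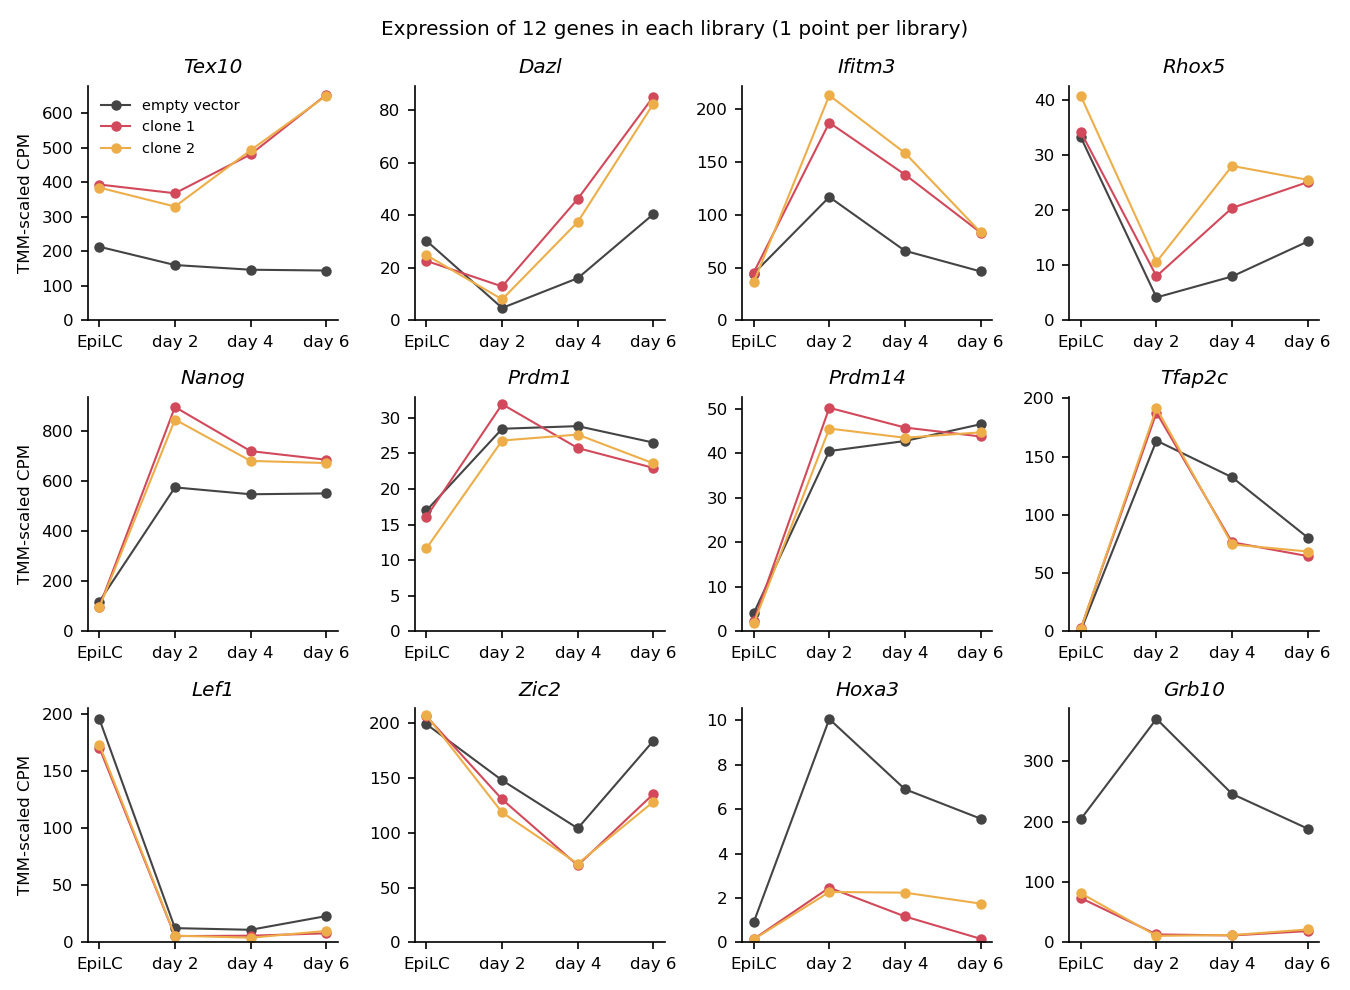
TMM-scaled CPM (y axis) of 12 genes in EpiLCs and at PGCLC days 2, 4 and 6 (x axis), 1 point per library, with EV in grey and the clones in red and yellow. Dazl, Ifitm3 and Nanog are higher in both clones on the PGCLC days and not in EpiLCs, Prdm1 and Prdm14 overlap, and Grb10 falls to between 10.9 and 21.4 in the clones while EV has 188 or more.

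The proximal promoters of Dazl and of Tex19.1, a germline gene that guards against transposons, are shown because genes of this class are known to be held silent by methylation of CpG-rich promoters in somatic cells. Both windows are the 250 bases before the RefSeq start on GRCm38.p6, at chr17:50293621-50293870 on the minus strand for Dazl and chr11:121145893-121146142 on the plus strand for Tex19.1. They are written 5′ to 3′ in the direction of the gene, with CG dinucleotides in capitals.
Dazl: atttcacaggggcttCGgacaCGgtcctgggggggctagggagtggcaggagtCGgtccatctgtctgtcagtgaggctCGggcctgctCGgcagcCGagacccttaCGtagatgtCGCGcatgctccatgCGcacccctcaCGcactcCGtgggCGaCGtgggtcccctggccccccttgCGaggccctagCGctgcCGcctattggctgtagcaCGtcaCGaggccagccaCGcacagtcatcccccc
Tex19.1: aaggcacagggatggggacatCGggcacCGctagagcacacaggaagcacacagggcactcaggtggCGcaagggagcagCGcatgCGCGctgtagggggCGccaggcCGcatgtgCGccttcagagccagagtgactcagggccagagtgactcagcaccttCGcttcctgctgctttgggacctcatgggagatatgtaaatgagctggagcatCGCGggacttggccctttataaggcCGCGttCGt
The Dazl window holds 20 CG dinucleotides and that of Tex19.1 holds 15, against a median of 6 and quartiles of 2 and 16 over 32851 promoter entries. No methylation was measured here. In EpiLCs, Tex19.1 was lower in the clones, 93.9 and 99.7 against 190 in EV. At day 2 it was at 33.1 and 37.5 in the clones against 31.5 in EV. By day 4 it was at 95.3 and 86.0 in the clones against 46.4 in EV, and by day 6 at 98.6 and 103 against 94.7. It rose over the PGCLC days by 0.40 with an SE of 0.11 (limma adjusted p = 0.0162). The gap lay mostly at day 4, with 1.02 and 0.88 against 1 EV library. The change from EpiLCs was 1.37 (limma adjusted p = 0.000318), and the mean clone difference in EpiLCs, against 1 EV library, was -0.97.

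Pluripotency genes that passed were mostly higher, by small amounts. In the naive list, 5 of 16 tested genes rose and 1 fell (37.5% called, against 9.12% of all tested genes), with a median of 0.112. Nanog, the homeodomain factor that supports naive pluripotency and germ cell entry, was the member of the core list to rise, 1 of 5 tested. Its EV levels were 574, 546 and 550 on days 2, 4 and 6, against 894, 718 and 684 in clone 1 and 844, 679 and 671 in clone 2. The groups did not overlap and the gap was widest at day 2. The log2 fold change was 0.42 with an SE of 0.06 (limma adjusted p = 1.04e-05), while in EpiLCs the clones were lower (98.3 and 95.6 against 119), and the interaction was 0.71 (limma adjusted p = 0.000432). Dppa5a, an RNA-binding protein of pluripotent cells, rose by 0.53 with an SE of 0.08 (limma adjusted p = 1.37e-05) and Tdh, the threonine dehydrogenase of mouse pluripotent cells, by 0.34 with an SE of 0.08 (limma adjusted p = 0.00444). The Tdh call was lost without clone 2 and without the day 4 EV library. Smaller gains of 0.18 to 0.20 were called for Tbx3, Tfcp2l1 and Fgf4. Zfp42 (Rex1) fell by 0.22 with an SE of 0.06 (limma adjusted p = 0.0243), but its tested neighbours had a median of -0.52 in the chromosome 8 run described below. Sox2, Pou5f1, Sall4 and Utf1 had fold changes between -0.01 and 0.14 and did not pass. The naive count fell to 3 without the day 4 EV library, to 2 without clone 1, to 1 without clone 2 and to 0 without the variance trend or without the filter. Other single libraries also lowered it past 1.5 times, to 3 without clone 2 at day 2 or clone 1 at day 4 and to 2 without clone 2 at day 6.

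Formative epiblast genes, which define the EpiLC state and are lowered on the way to germ cells, had 4 of 15 tested members lower in the clones and none higher (26.7% called, against 9.12% of all tested genes), with a median of -0.283 and a median EpiLC difference of 0.044. Lef1, a transcription factor that carries the Wnt signal to DNA, had 12.5, 11.04 and 23.0 in EV on days 2, 4 and 6. Clone 1 had 5.55, 5.85 and 7.97 and clone 2 had 5.90, 4.11 and 10.05, below EV on each day. Its log2 fold change was -1.10 with an SE of 0.19 (limma adjusted p = 0.000119), and it passed in each of the 22 fits run here. Zic2, a zinc finger factor of the primed epiblast, had 148, 104 and 184 in EV against 130, 70.2 and 135 in clone 1 and 118, 71.7 and 128 in clone 2. It fell by 0.42 with an SE of 0.07 (limma adjusted p = 0.000158). The de novo DNA methyltransferases Dnmt3a and Dnmt3b fell by 0.36 (SE 0.07, limma adjusted p = 0.00164) and 0.29 (SE 0.08, limma adjusted p = 0.0221). For Dnmt3b the gap lay mostly at day 2, with 275 in EV against 200 and 180. Fgf5 and Otx2, further EpiLC markers, had -0.42 and -0.36 and did not pass (limma adjusted p = 0.424 and 0.0962). Among the 16 tested writers and erasers of DNA methylation, the 2 called were again Dnmt3a and Dnmt3b (12.5%, near the 9.12% of all tested genes). The formative count was 3 to 5 with 1 library left out and 1 without the variance trend or without the filter. The 2 methylation calls became 1 without clone 2 and 0 without the trend or the filter.

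Wnt pathway genes also went down more often than up. Of 46 tested members 10 fell and 1 rose (23.9% called, against 9.12% of all tested genes). The list median was -0.158, with a median EpiLC difference of 0.003. Among ligands and their secretion, Wnt3, which induces the primitive streak, fell from 4.45, 5.82 and 1.66 in EV to at most 3.18, 2.05 and 0.488 in the clones. The log2 fold change was -1.01 with an SE of 0.27 (limma adjusted p = 0.0127), and EpiLCs already showed 2.09 and 3.16 against 7.36. Wnt8a fell by 0.81 with an SE of 0.24 (limma adjusted p = 0.0307), from 12.5 to 4.47 and 4.84 at day 2. Porcn, the acyltransferase that lets Wnt proteins leave the cell, fell by 0.42 with an SE of 0.12 (limma adjusted p = 0.0255). Of the receptors, Fzd3, Fzd7 and the coreceptor Lrp5 fell by 0.36, 0.26 and 0.29, and Fzd10 rose by 0.30 (limma adjusted p = 0.046). The antagonist Sfrp1 fell by 0.65, and lies in the chromosome 8 run where its neighbours had a median of -0.64. The target genes Sp5 and Sp8, zinc finger factors, fell by 0.88 (SE 0.28, limma adjusted p = 0.0454) and 0.85 (SE 0.25, limma adjusted p = 0.0255). Sp5 was at 4.31 in EV and 0.154 and 0.757 in the clones at day 2, and at 1.96 against 1.30 and 1.17 at day 6. Axin2, the usual readout of the pathway, had -0.12 and did not pass, and Ctnnb1, which encodes beta-catenin, had 0.07.

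Most of these calls were near the threshold. The Wnt count was 3 without the day 4 EV library, 3 without clone 1, 2 without clone 2 and 1 without the variance trend or without the filter. It was 5 to 7 without any of the other single libraries apart from the day 6 EV library, without which it was 10. Sp5 passed in 5 of 21 fits, Sp8 in 10 of 21, Wnt8a in 9 of 22 and Porcn in 13 of 22. The call on Wnt3 was lost without clone 2 and without the EV library of day 4 or day 6, and Fzd10 passed in 4 of 22 fits and Fzd3 in 8.

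The 250 bases before the starts of 10 of the 11 called Wnt genes were looked up (Wnt8a was left out), and those with a RefSeq entry were searched for CTTTGA on both strands, the core of the TCF/LEF site, since Lef1 and its targets are in the list. It was found in 3 of 11 entries, against 13.8% of all 32851 entries. By gene, it was in an entry of 3 of 6 (Lef1, Sp5 and Sp8), against 15.8% of all genes. These 3 were listed as a carrier or targets of the Wnt signal, so the comparison says nothing about genes that fell. Lef1 and Sp8 also have several entries each, and Wnt3, Fzd7 and Fzd10 had no match. Of the 4 Lef1 entries, the 1 that holds CTTTGA lies inside the annotated gene (chr3:131110297-131224357). The other entries, nearer the 5′ end of the gene, have no match. The entry with matches is given, at chr3:131156044-131156293 on the plus strand (GRCm38.p6, RefSeq). The 2 matches are in capitals (TCAAAG is the same core on the other strand).
Lef1: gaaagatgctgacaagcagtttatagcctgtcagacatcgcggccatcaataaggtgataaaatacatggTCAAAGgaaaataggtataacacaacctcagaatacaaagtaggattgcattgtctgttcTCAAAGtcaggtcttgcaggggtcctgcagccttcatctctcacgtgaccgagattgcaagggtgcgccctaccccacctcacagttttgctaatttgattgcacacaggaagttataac
A match of these letters is a description of the window and not a bound site.

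**Figure D3:**
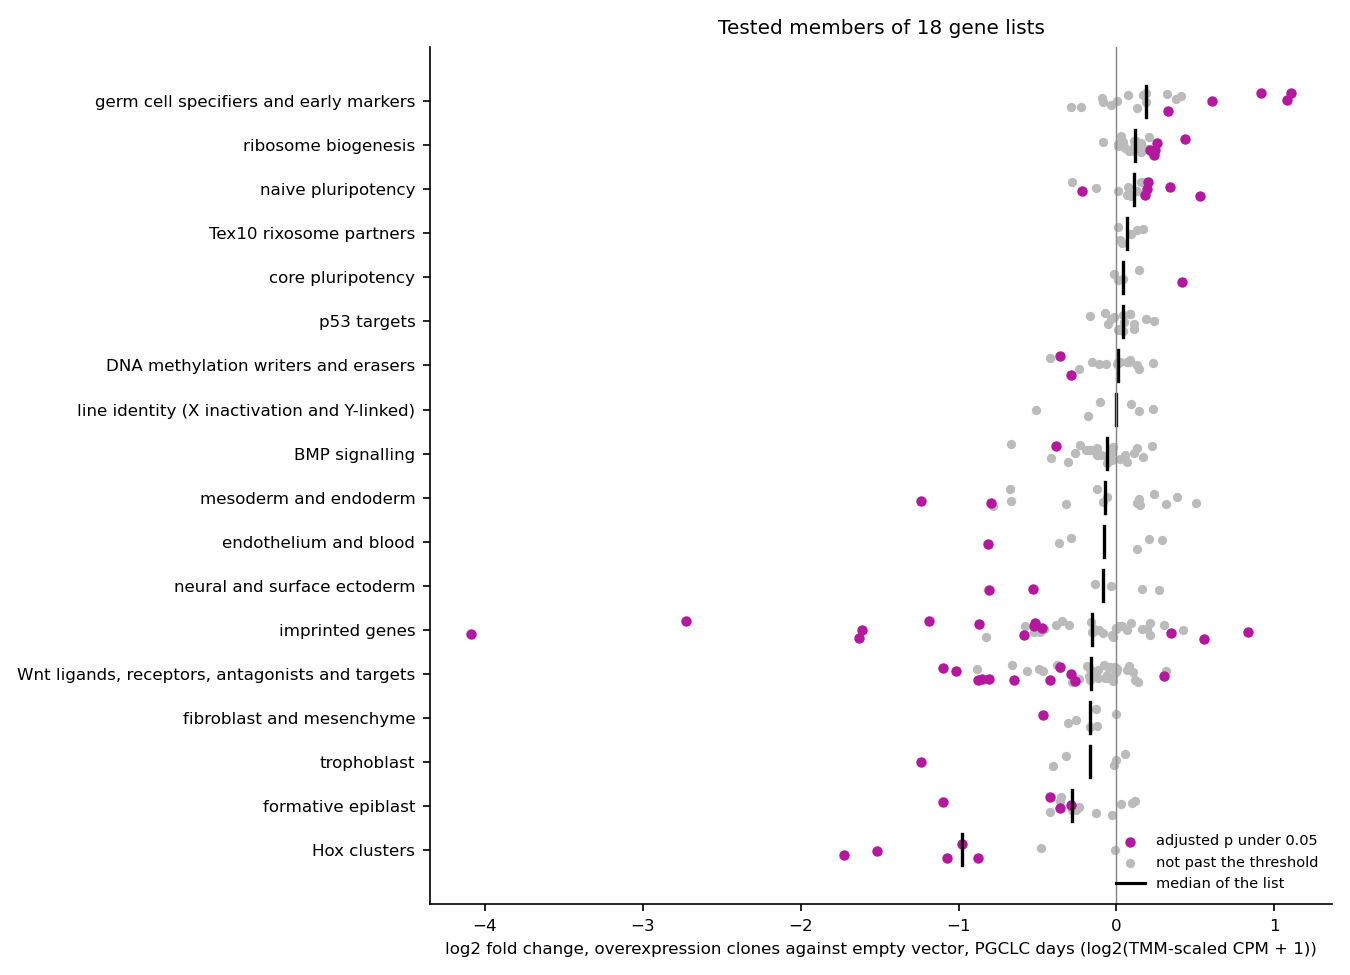
Each point is a tested gene of 1 of 18 lists, with its log2 fold change over the PGCLC days on the x axis, purple where the adjusted p was under 0.05, and a bar at the list's median. The germ cell list has 5 called genes, all to the right of 0, and the formative list 4, all to the left.

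Hox genes pattern the body axis and are kept silent by Polycomb in early embryonic cells, and those at the 3′ end of the clusters come on first under Wnt signals. Of 30 listed genes, 7 passed the filter on low values and 5 of them fell, where 9.12% of all tested genes were called. The filter bears on this count, since Hoxb1 and Hoxb2 passed it through the EV line: over all stages they averaged 2.85 and 3.92 in its 4 libraries and 0.653 and 0.754 in the 8 clone libraries. Part of the gap was there in EpiLCs for Hoxa3 and Hoxb2, with mean clone differences of -0.73 and -0.87. For Hoxb1 the EpiLC difference, -1.19, was no smaller than its fall on the PGCLC days. The median of the 7 in EpiLCs was -0.516. Hoxa3 was at 10.1, 6.90 and 5.57 in EV on days 2, 4 and 6, at 2.46, 1.17 and 0.163 in clone 1 and at 2.27, 2.24 and 1.75 in clone 2. It fell by 1.72 with an SE of 0.26 (limma adjusted p = 2.76e-05). Hoxb2 fell by 1.52 (SE 0.27, limma adjusted p = 0.000257), Hoxa5 by 0.98 (SE 0.26, limma adjusted p = 0.0144) and Hoxb1 by 1.08 (SE 0.34, limma adjusted p = 0.0395). Hoxb1 passed in 9 of 20 fits, and the call on Hoxa5 was lost when any of the 3 EV libraries or clone 1 was left out. The summed level of the 30 genes was 45.8 to 61.8 in the EV libraries of the PGCLC days and 21.6 to 30.8 in the clones, with no overlap, and 21.2 against 14.5 and 7.97 in EpiLCs. The count was 3 without the day 2 EV library, without the day 4 EV library or without clone 1, and 5 without clone 2. It was 2 without the variance trend and 0 without the filter on the mean, where Hoxb2 had an adjusted p of 0.0781 in limma and Hoxb1 0.419.

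Each of the 5 lists of markers of other cell types had 1 or 2 called genes, all lower in the clones. The lists hold 6 to 16 tested genes and 9.12% of all tested genes were called, so in a list of 6 or 7 genes a single call exceeds that share. Mesoderm and endoderm genes had 2 of 16 tested members lower (12.5%), Hand1 and Snai1. Hand1, a factor of lateral mesoderm and trophoblast, was at 0.718, 15.9 and 9.34 in EV, at 0.154, 3.68 and 2.60 in clone 1 and at 1.06, 2.80 and 2.48 in clone 2. Its fall of 1.24 (SE 0.28, limma adjusted p = 0.00375) thus came from days 4 and 6, and was lost without either of these EV libraries. Snai1, a repressor of epithelial genes, fell by 0.79 (SE 0.24, limma adjusted p = 0.0318) and passed in 8 of 21 fits. In EpiLCs Snai1 was already lower, at 4.03 and 4.94 in the clones against 9.16 in EV. Trophoblast genes had the same Hand1 as the 1 called of 6 tested (16.7%). T, or Brachyury, was at 6.59 in EV and 0.836 and 1.49 in the clones at day 4, and at most 0.753 in every line at days 2 and 6. Its log2 fold change was -0.78 with an SE of 0.30 (limma adjusted p = 0.104). T passed the filter on low values through the EV line, averaging 2.17 in the EV libraries of all stages and 0.568 in those of the clones. The summed mesoderm and endoderm level of 26 genes was 44.5, 123 and 88.1 in EV and 39.0 to 84.7 in the clones, and Cer1 was at 0 in all 9 libraries. Without the day 4 EV library, and likewise without that of day 6, none of this list was called. Less of a cell type and less RNA per cell cannot be told apart in bulk samples.

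Of the remaining lineage lists, neural and surface ectoderm had 2 of 6 tested genes lower (33.3%), Sox1 and Nes. Nes, the intermediate filament nestin, fell by 0.53 (SE 0.09, limma adjusted p = 0.000119), and Sox1 lies in the chromosome 8 run. Fibroblast and mesenchyme genes had 1 of 7 tested (14.3%), Vim, which fell by 0.46 (SE 0.10, limma adjusted p = 0.00353), and Dcn and Fap of that list were at 0 in all 9 libraries. Runx1 was the called gene of 6 for endothelium and blood (16.7%), where Hba-a1 and Hbb-y were at 0, and it fell by 0.81 (SE 0.25, limma adjusted p = 0.0387) but passed in 8 of 21 fits. The calls on Vim and Sox1 were lost without the day 2 EV library, without the filter, without the variance trend and in DESeq2, and that on Sox1 also without clone 2, with its log2 fold change ranging from -1.17 to -0.23. The ectoderm list had 1 call without the shifted runs and 0 without the variance trend or without the filter. Within each day the summed level of the fibroblast list was higher in EV, at 650 against 587 and 555, 782 against 689 and 677, and 872 against 836 and 798. That of endothelium and blood was lower in EV on each day, at 73.5 against 89.4 and 83.9, 79.5 against 92.9 and 82.7, and 94.1 against 101 and 98.7. Few genes carry these sums. Fn1 and Vim held 97.9 to 98.6% of the fibroblast sum in the 9 libraries, and Pecam1, an adhesion protein of endothelium that pluripotent cells also express, held 85.3 to 94.8% of the other. Without Pecam1 that sum was 9.48 in EV against 4.62 and 6.66 at day 2, 8.89 against 12 and 8.03 at day 4, and 13.9 against 10.7 and 9.61 at day 6. The part of these cell types in the results was not tested.

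Imprinted genes, which are read from the maternal or the paternal copy only, included the called gene with the largest change. Of 44 tested members 10 fell and 3 rose (29.5% called, against 9.12% of all tested genes), with a median of -0.152. Peg13 and Igf2, 2 of those that fell, passed the filter on low values through the EV line, so the count and the median depend on that filter. Grb10, an adaptor that restrains insulin and IGF signalling (chr11:11930499-12037428), had 370, 246 and 188 in EV on days 2, 4 and 6. Clone 1 had 13.2, 11.5 and 18.7 and clone 2 had 10.9, 12.1 and 21.4. The fall of 4.09 with an SE of 0.16 (limma adjusted p = 4.59e-19) was the largest among the 1392 called genes. EpiLCs had 204 in EV against 73.4 and 81.5, so the gap widened on the PGCLC days, with an interaction of -2.70 (limma adjusted p = 1.6e-06), and narrowed by 1.66 from day 2 to day 6 (limma adjusted p = 0.0015). The neighbours of Grb10 had a median of 0.02.

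Peg13, a noncoding RNA, fell by 2.72 (SE 0.27, limma adjusted p = 8.35e-09), from 7.90, 7.20 and 11.4 in EV to between 0 and 1.34 in the clones. Over all stages it averaged 7.65 in the 4 EV libraries and 0.638 in the 8 clone libraries. With no filter on the mean its adjusted p in limma was 0.0196. Igf2, the growth factor, was at 0.575, 12.7 and 9.03 in EV and at most 1.87 in any clone library, a fall of 1.63 (SE 0.29, limma adjusted p = 0.000235). It averaged 5.58 in the EV libraries of all stages and 0.825 in those of the clones, and without the filter the call was lost (limma adjusted p = 0.129). The neighbour of Igf2, H19, a noncoding RNA expressed from the other parental copy, rose by 0.84 (SE 0.11, limma adjusted p = 3.17e-06). H19 was at 7.04, 38.8 and 35.7 in EV, at 16.6, 60.5 and 60.9 in clone 1 and at 14.8, 75.04 and 54.0 in clone 2. In EpiLCs H19 had 5.71 in EV and 5.96 and 4.40 in the clones, but the change from EpiLCs, 0.97, did not pass (limma adjusted p = 0.0797).

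Other called imprinted genes lie on chromosome 7. Magel2 fell by 1.61 (SE 0.29, limma adjusted p = 0.000298), Snrpn by 1.19 (SE 0.25, limma adjusted p = 0.00213) and Ndn by 0.51 (SE 0.14, limma adjusted p = 0.0139). Snhg14, the long host RNA of this domain, was at 112, 88.1 and 67.3 in EV and at most 49.5, 31.3 and 27.8 in the clones. Its fall of 1.42 (SE 0.11, limma adjusted p = 4.09e-11) was among the 12 largest consistent decreases with a mean of at least 5. Peg12, Mkrn3 and Usp29, paternally expressed genes of the same chromosome, had -0.46, -0.34 and -0.39 and did not pass. The annotated spans of Snrpn and Snhg14 overlap, so reads of the one may be counted for the other. Magel2 and Snhg14 were lower in EpiLCs too, by 1.24 and 0.83 on average over the clones. Also down were Nnat by 0.87, Cdkn1c by 0.58, Peg3 by 0.52 and Meg3 by 0.47, and up were Impact by 0.56 and Mcts2 by 0.34. Impact was already higher in EpiLCs, with a mean clone difference of 0.58. The calls on Snrpn and Ndn were lost without clone 2 and without the day 4 EV library, that on Nnat without clone 1 and without the EV library of day 2 or day 4, and that on Cdkn1c without the day 2 EV library. Mcts2 passed in 5 of 22 fits. The count of the list was 9 without the day 4 EV library, 12 without clone 1 and 10 without clone 2. It was 5 without the variance trend and 4 without the filter.

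**Figure D4:**
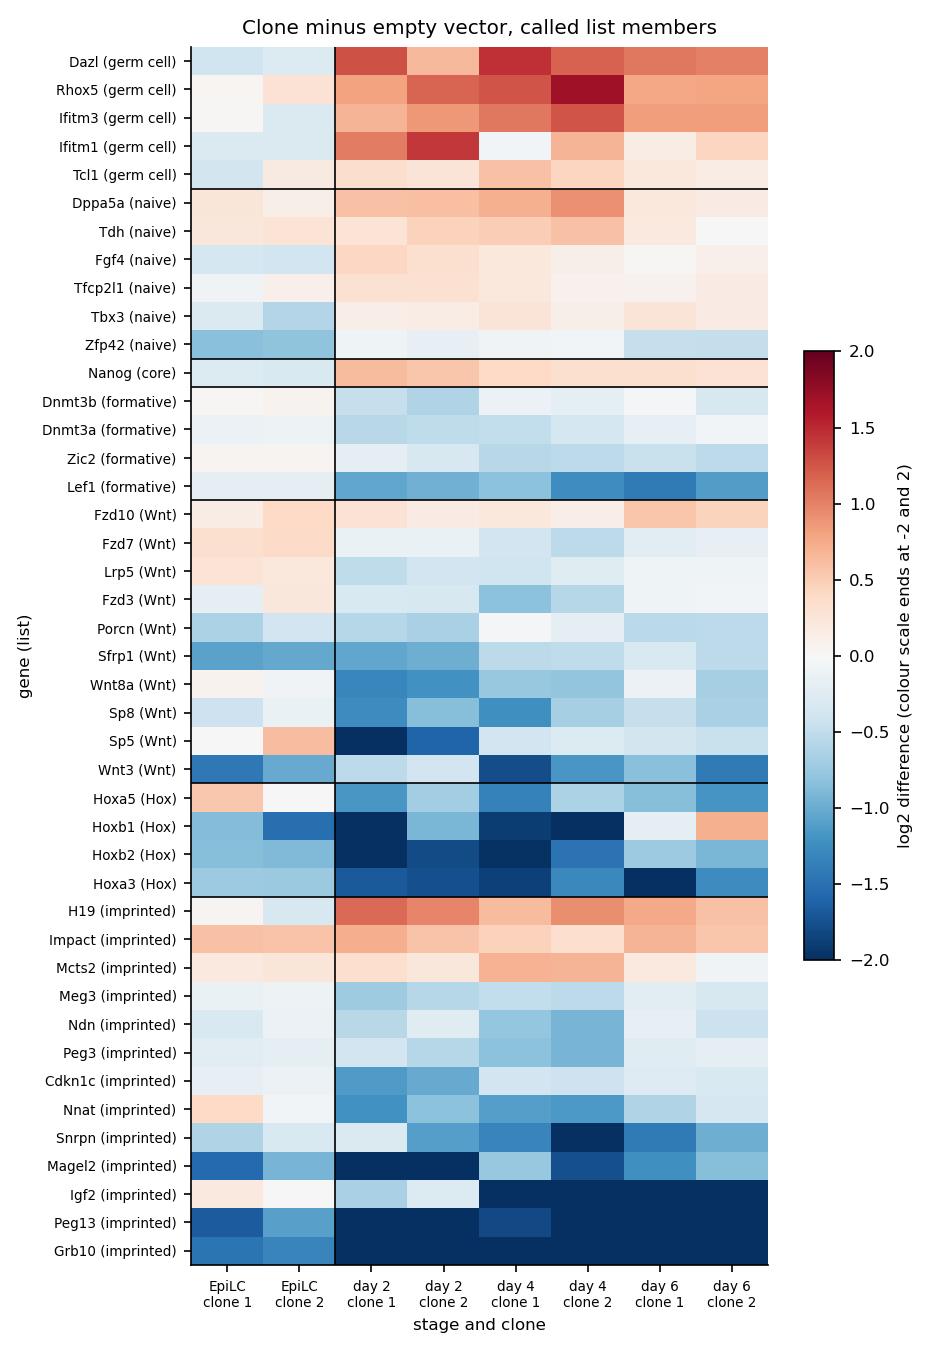
Log2 difference of each clone from the EV library of the same stage (colour, scale ending at -2 and 2) for 43 called list members, with stages and clones on the x axis and genes on the y axis. Dazl is higher in the 6 PGCLC columns and lower in the 2 EpiLC columns, H19 is higher in the 6 PGCLC columns, with 0.054 and -0.314 in EpiLCs, while Grb10, Peg13 and Magel2 are lower in all 8 columns.

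The protein partners of Tex10 in the rixosome were tested as 6 genes, and none passed (Pelp1, Wdr18, Senp3, Las1l, Nol9 and Mdn1, 0.01 to 0.17). Ribosome biogenesis genes had 5 of 22 members higher (22.7%, against 9.12% of all tested genes), with a median of 0.121. They were Nip7 by 0.43 (SE 0.07, limma adjusted p = 0.000144), Nop56 by 0.26, Nolc1 by 0.24, Rrs1 by 0.24 and Tsr1 by 0.21. Without the day 4 EV library, clone 1 or clone 2 the count was 1, and without the day 6 EV library 3. It was 0 without the variance trend or without the filter. BMP pathway genes had 1 of 25 lower (4%, against 9.12% of all tested genes), the receptor Bmpr2 by 0.38 (SE 0.09, limma adjusted p = 0.00666), which was lost without clone 2 and without the day 4 EV library. The 6 genes of X inactivation and the Y chromosome had no call. The 16 p53 targets had none over the PGCLC days, but their summed level was 2241 in EV against 2778 and 2682 in the clones at day 2 and 2905 against 2569 and 2596 at day 6. In the test of day 6 against day 2 (0.17% of tested genes called), 2 of the 16 passed, Trp53inp1 with -0.73 (limma adjusted p = 0.0165) and Ccng1 with -0.62 (limma adjusted p = 0.0262).

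Some stretches of neighbouring genes were shifted together in the clones, as medians over the PGCLC days. On chromosome 8, 205 tested genes between 3150922 and 47683439 (GRCm38.p6) had a median log2 fold change of -0.514, with 184 of them below 0 and 136 called. Each clone library showed it, from -0.43 to -0.52 on the PGCLC days, and EpiLCs had -0.48 and -0.47. On chromosome 6, 22 genes between 65432052 and 71302880 had a median of 0.493, with 0.39 and 0.54 in EpiLCs and 9 called. A chromosome 4 run of 16 genes had -0.224 with 1 called, and a chromosome 18 run of 10 genes had -0.364 with 0 called in limma. The chromosome 18 run was not shifted at every stage: its median was -0.507 and -0.865 in the clones at day 2 and -0.149 and -0.545 at day 4, but 0.111 and 0.001 at day 6 and -0.095 and -0.028 in EpiLCs. The runs held 253 genes (1.66% of tested genes) and 146 of the 1392 calls, and 1179 genes were called without them. Copy number was not measured, and its part in these runs was not tested.

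**Figure D5:**
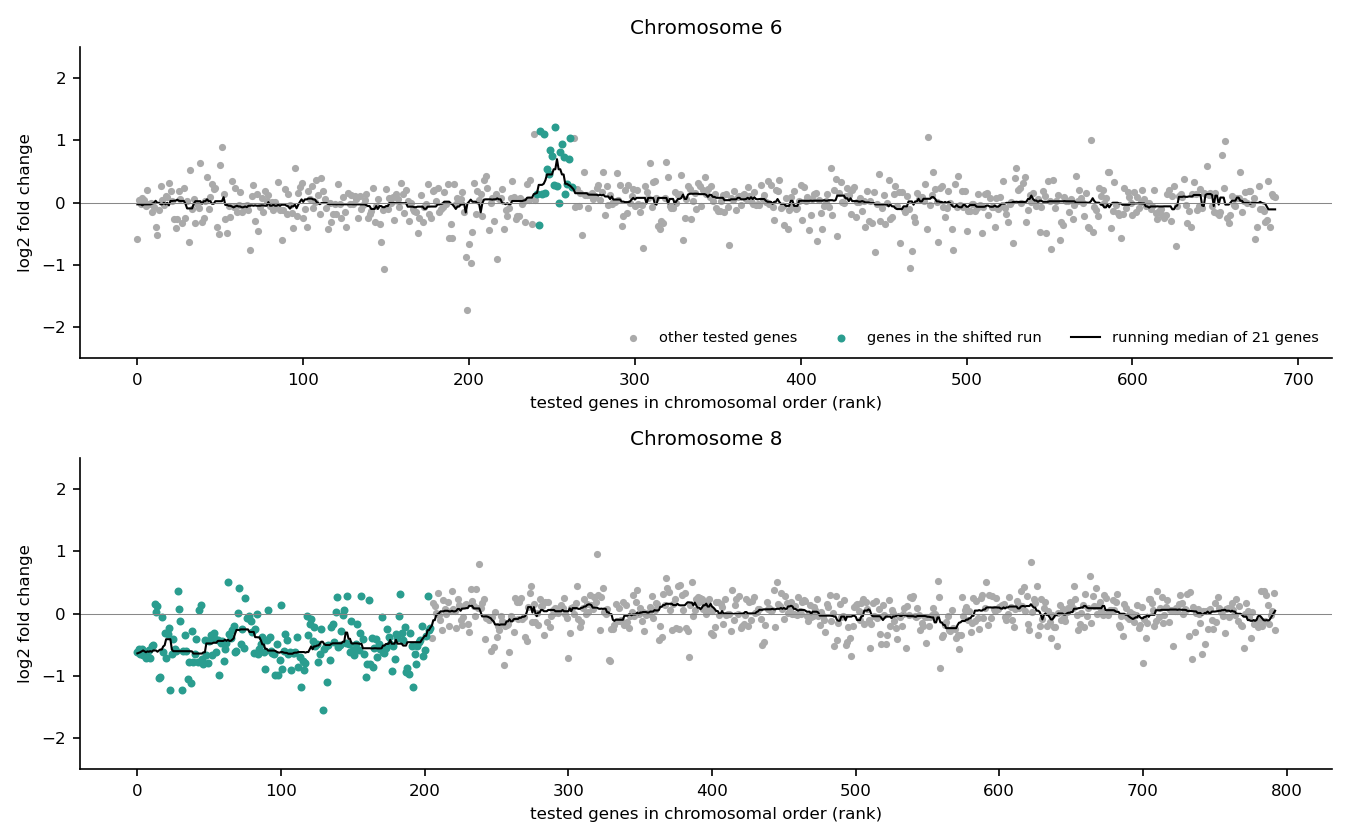
Log2 fold change over the PGCLC days (y axis) of the tested genes of chromosomes 6 and 8 in chromosomal order (x axis, rank), with genes of the shifted runs in green and the running median of 21 genes in black. On chromosome 8 the first 205 genes sit around -0.514 and the rest near 0, and on chromosome 6 a short stretch of 22 genes sits around 0.493.

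Several of the largest increases came from or beside the chromosome 6 run. Serbp1, an RNA-binding protein, had 601, 474 and 522 in EV, 1494, 1070 and 1122 in clone 1 and 1542, 1080 and 1134 in clone 2. It rose by 1.21 (SE 0.06, limma adjusted p = 8.61e-17), and its EpiLC levels of 1555 and 1564 against 770 show a gap of 1.02. Mad2l1 and Krcc1 of that run and Smarcad1 and Rmnd5a beside it rose by 1.03 to 1.11, with EpiLC gaps of 0.88 to 1.15. Mad2l1 is a spindle checkpoint protein and Smarcad1 a chromatin remodeller. Likewise 4 of the 12 largest consistent decreases with a mean of at least 5 lie in the chromosome 8 run. Efnb2, a ligand of Eph receptors, fell by 1.24, Ccl25 by 1.23, the basement membrane collagen Col4a2 by 1.12 and Adgra2 by 1.09. Their neighbours had medians of -0.38 to -0.60, and these 4 genes were chosen for the size of their fall.

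Outside the runs, Cbr3, a carbonyl reductase, rose by 1.17 (SE 0.18, limma adjusted p = 2.08e-05). Its level was lower on later days in each line, at 33.6, 5.06 and 3.31 in EV, 39.7, 19.6 and 10.3 in clone 1 and 49.3, 18.3 and 10.8 in clone 2. Nqo1, a quinone reductase, was at 11.7 to 12.1 in EV and 18.2 to 26.6 in the clones and rose by 0.83 (SE 0.14, limma adjusted p = 8.5e-05), while EpiLCs had 99.7 in EV and 80.2 and 69.2 in the clones. Tuba3a, a testis-type alpha-tubulin, rose by 1.01 (SE 0.12, limma adjusted p = 2.55e-07), from 6.46, 17.5 and 42.2 in EV to 15.7, 42.9 and 71.3 in clone 1. Pla2g1b, a secreted phospholipase, rose by 1.16 (SE 0.26, limma adjusted p = 0.0029) but was not called without the day 4 EV library.

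Among the decreases, Rgs22, a regulator of G-protein signalling, fell by 2.54 (SE 0.24, limma adjusted p = 2.87e-09). EV had 13.9, 24.8 and 21.4 and the clones 0.462 and 0.454, 3.68 and 2.80, and 5.53 and 6.84, with an EpiLC gap of -2.09. Grin1, a glutamate receptor subunit, fell by 1.23 (SE 0.15, limma adjusted p = 3.69e-07), from 12.8, 48.7 and 40.4 to at most 4.39, 23.0 and 20.2. Loxl2, which crosslinks collagen, was at 14.7, 53.5 and 41.3 in EV against at most 3.78, 21.9 and 33.6, and fell by 1.17 (SE 0.17, limma adjusted p = 9.62e-06). Igfbp5, a binding protein of insulin-like growth factors, fell by 1.42 (SE 0.27, limma adjusted p = 0.000506), and this call was lost without the day 4 EV library. Tcaf1 fell by 1.06 (SE 0.20, limma adjusted p = 0.000638) and was lost without the same library. The levels of Grin1, Loxl2 and Igfbp5 climbed in each line between day 2 and day 4.

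The difference between the lines on the PGCLC days departed from that in EpiLCs for 90 genes, 48 upwards and 42 downwards (0.59% of tested genes). Besides Cbr3, Dazl, Tex19.1 and Nqo1, which went from below EV in EpiLCs to above it, Amot and Mvb12b were above EV in EpiLCs and lower on the PGCLC days. St8sia6 had 9.84 and 9.62 in the clones against 3.46 in EpiLCs, and its PGCLC difference of -0.39 did not pass (limma adjusted p = 0.261), with both clones still above EV at day 2. Amot, a scaffold of the Hippo pathway, was at 31.2 and 37.5 in the clones against 16.5 in EpiLCs, and at 5.53 to 17.6 against 11.9 to 23.9 on the PGCLC days. The interaction was -1.62 (limma adjusted p = 0.00513). Mvb12b, a subunit of the ESCRT-I sorting complex, had -1.39 (limma adjusted p = 0.00991). The number of calls was 13 without clone 1 and 7 without clone 2, all of them among the 90. It was 240 without the day 2 EV library and 149 without that of day 6, of which 89 and 81 were among the 90.

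Between day 2 and day 6 the difference changed for 26 genes, 18 upwards and 8 downwards (0.17% of tested genes). Under quantile normalization the share of upward calls was 51.7% in place of 69.2%. Sox1, an early neural factor, was at 22.4 in EV against 5.39 and 4.69 in the clones at day 2, and at 26.5 against 26.2 and 24.3 at day 6. Its change was 1.89 (limma adjusted p = 0.039), and Vim followed the same course with 0.97 (limma adjusted p = 0.0175), from 72.4 against 32.2 and 35.1 at day 2 to 244 against 229 and 221 at day 6. Zfp423, a zinc finger factor that works with BMP-activated Smads, was at 146 in EV against 78.6 and 75.8 at day 2 and at 179 against 210 and 206 at day 6, a change of 1.13 (limma adjusted p = 0.00323). The Sox1 change passed in 6 of 19 fits and ran from 0.64 to 3.13, and that of Zfp423 passed in 18 of 21 and ran from 0.17 to 2.09. Padi2, a peptidylarginine deiminase, went the other way, from 60.9 and 48.3 in the clones against 27.7 at day 2 to 13.5 and 12.7 against 20.8 at day 6, and its change passed in 9 of 20 fits, with values from -3.00 to -0.14. Chac1, a stress-responsive enzyme that breaks down glutathione, had 70.1 and 74.8 against 33.7 at day 6. Each day has 1 EV library, and the count was 3 without that of day 2, 72 without that of day 4 and 75 without that of day 6. Leaving out any clone library but clone 2 at day 4 lowered it to between 4 and 6, and leaving out that one raised it to 40.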

How the data were processed

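RNA-seq of PGCLCs and EpiLCs from 1 empty-vector line and 2 Tex10 clones was measured in 12 libraries, with a Tecan mRNA library kit named in the protocol (per the labels). Per the submitters' processing notes, Bowtie2 2.3.4.3, SAMtools 1.9, HTSeq 0.11.2, edgeR 3.26.8 and mm10 were used, with no role or order given. The deposited values are a signal that the authors scaled by TMM, per the table's name. In each library 100% of values were whole multiples of a step (within 0.1 read), so reads were recovered and the unit is read as TMM-scaled CPM. Log2 fold changes and p-values of the authors' own comparisons are also deposited.

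The test took genes whose mean over the 12 libraries reached 1 (15255 of 50969). Log2(CPM + 1) values were fitted in limma 3.58.1 (R 4.3.3) with a variance trend and stage as block, and p-values were adjusted by Benjamini-Hochberg over all tested genes at 0.05. Interaction terms compared the PGCLC days with EpiLCs (12 libraries) and day 6 with day 2 (a linear day term). The fits were tested on simulated data. Days stand in for replicates, and nothing says that they were separate cultures, so p-values measure only the spread between these libraries. Alternatives were another pseudocount, filters, scalings, edgeR 4.0.16 and DESeq2 1.42.0 on recovered reads, and a line block. Others left out each PGCLC library, each clone or the shifted runs (added after seeing the data). No EpiLC library was left out alone, so the dependence of the EpiLC interaction on the 1 EpiLC EV library was not examined.

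Genes were named by a rule: the 12 largest consistent increases and decreases with a mean of at least 5, called list members of at least 0.3 in size, 8 set genes, and the 4 largest per direction in each interaction. Dppa3-ps, Axin2, Ctnnb1 and list members given as uncalled examples or smaller calls were added for context. Some genes that the rule names are not reported here. The members and lists were chosen with earlier results of these data known. Positions come from a RefSeq table of GRCm38.p6, which placed 14502 tested genes, and a shifted run is at least 10 genes whose running median passes 0.2 in size. The dTAG13 and testis tables were not used here.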

Additional observations from a re-analysis of the deposited data

Results flagged for a closer look

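These values were singled out because the difference between the clones and EV was not the same in 2 conditions, by a limma interaction term. Between EpiLCs and the PGCLC days it went up by 1.63 for Cbr3 (adjusted p = 0.00293), 1.45 for Dazl (0.00169), 1.37 for Tex19.1 (0.000318), 1.25 for Nqo1 (0.00234), 1.05 for Ifitm3 (0.00042), 0.80 for Tex10 (0.0251) and 0.71 for Nanog (0.000432). Over the same step it went down, by -2.70 for Grb10 (limma adjusted p = 1.6e-06), -1.66 for St8sia6 (0.0342), -1.62 for Amot (0.00513), -1.39 for Mvb12b (0.00991) and -1.23 for Tfap2c (0.00307).

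From day 2 to day 6 it went up by 1.89 for Sox1 (limma adjusted p = 0.039), 1.66 for Grb10 (0.0015), 1.36 for Chac1 (0.0175), 1.13 for Zfp423 (0.00323), 1.05 for Tex10 (8.77e-05) and 0.97 for Vim (0.0175). It went down by -1.57 for Padi2 (limma adjusted p = 0.039), -1.09 for Lzts2 (0.0484), -0.90 for Ak1 (0.0434) and -0.79 for Trap1a (0.0232). Sox1 lies in the shifted chromosome 8 run. Several of these day changes, all called in the reported fit, were called in a minority of the alternatives run. They were Lzts2 in 5 of 20, Sox1 in 6 of 19, Ak1 in 8 of 21, Padi2 in 9 of 20 (from -3.00 to -0.14) and Trap1a in 10 of 21. Of the changes from EpiLCs, St8sia6 passed in 9 of 20 fits.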

How the results depend on the processing

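Of 66 named genes called over the PGCLC days, 20 were called under each alternative run, Dazl, Ifitm3, Lef1, Grb10, H19 and Tex10 among them. Over 1430 pairs of gene and alternative the direction held, and 238 lost the call, most often without the low-value filter (46) or the variance trend (39). Of uncalled genes, Prdm14 ranged from -0.0055 (without the day 2 EV library) to 0.1474 and Nanos3 from -0.0775 (without that of day 6) to 0.3981 with 1 library left out. The 1392 calls became 265 without the filter, 202 without the trend, 804 without clone 1, 447 without clone 2 and 68 at a log2 size of 1, and 559 to 1367 with 1 library left out. The 90 calls of the EpiLC interaction became 262 without the filter, 0 without the trend (1380 at an unadjusted p under 0.05 in limma, against 84 adjusted calls in edgeR and 83 in DESeq2), 13 without clone 1, 7 without clone 2 and 27 at a size of 1, and 61 to 240 with 1 library left out. The 26 calls between days became 16 at a pseudocount of 0.1, 46 without the filter, 0 without the trend (1050 at an unadjusted p under 0.05 in limma, against 38 in edgeR and 31 in DESeq2), 5 without clone 1, 15 without clone 2 and 9 at a size of 1, and 3 to 75 with 1 library left out. The libraries left out 1 at a time were those of the PGCLC days, never those of EpiLCs. The cause of these changes was not tested. The reported fit already sets each clone library against the EV library of its own stage. No paired analysis was possible by replicate number because EV has 1 library a day and shares only number 1 with the clones. With the line as a replicate block, the estimated correlation was -0.138 and 2557 genes were called, and 12 between days. Other scalings and tools kept the 1392 within 1.5 times, from 1089 in DESeq2 to 1398 in edgeR, though quantile normalization lowered the share of higher calls from 53.7% to 45.8%. Read depth limits Dppa3, Hoxb1 and other genes near 3 reads.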

Other observations

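In the authors' deposited table, which compares the lines at each stage, an FDR under 0.05 was reached by 345 genes in EpiLCs (132 higher, 213 lower), 747 at day 2 (355 higher, 392 lower), 841 at day 4 (417 higher, 424 lower) and 309 at day 6 (146 higher, 163 lower).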
